A study of Mus musculus with 6 samples.

Results

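A set of 10 genes of transforming growth factor β (TGF-β) signalling were followed in the mouse hippocampus after bilateral carotid artery stenosis (BCAS). They were chosen by symbol as the 3 ligand genes Tgfb1, Tgfb2 and Tgfb3, the 3 receptor genes Tgfbr1, Tgfbr2 and Tgfbr3, the SMAD genes Smad2, Smad3 and Smad7, and Lrrc33, whose current symbol is Nrros and which is called Nrros here. All 10 were found among the 54752 genes counted, 9 by their symbol and 1 by an older symbol, and all 10 passed the filter on low counts that left 18617 genes for testing.

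The libraries came from wild-type male C57BL/6 mice, named C57BL/6 J in the methods of the study. Their age is given as 14 weeks, and there were 3 sham mice and 3 BCAS mice, 1 library per mouse. For BCAS, both common carotid arteries were narrowed with a microcoil each, the tighter one on the right, and sham surgery left the coils out. RNA of the whole right hippocampus, on the side of the tighter coil, was taken 3 weeks after surgery and sequenced in paired-end mode, so every cell type of the tissue contributed to each library. The comparison asks how the genes differed between hypoperfused and sham hippocampus.

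TGF-β is secreted as a latent dimer in which the ligand stays bound to its own propeptide. Latent TGF-β binding proteins hold it in the extracellular matrix, NRROS (LRRC33) holds it on the surface of microglia and macrophages, and GARP (LRRC32) does so on other cells. Integrins with the αV chain and several proteases release the active ligand, which joins the type II receptor TGFBR2 and the type I receptor TGFBR1. TGFBR3 (betaglycan) is a co-receptor that presents ligand, TGF-β2 above all. The active receptor phosphorylates SMAD2 and SMAD3, which enter the nucleus with SMAD4, while SMAD7 is an inhibitory SMAD that blocks the receptor. In the brain, TGF-β signalling is known for keeping microglia in their resident state. The counts below measure transcripts, not ligand release, receptor activity or SMAD phosphorylation.

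Library totals ran from 29652456 to 35607098 counts, and a count of 3 corresponded to 0.0875 to 0.0995 CPM, the unit of counts scaled to the size of the library. Hippocampal identity was checked on its defining markers: all 9 pyramidal neuron markers and all 8 dentate granule neuron markers had more than 3 counts in every library. The BCAS libraries held more microglial transcript than the sham libraries, and less of pyramidal neurons and interneurons. The summed level of 17 microglia and macrophage markers was 485 to 513 CPM in the sham mice and 3787 to 6306 CPM in the BCAS mice. The summed level of 9 pyramidal neuron markers was 5604 to 5755 CPM and 2551 to 3842 CPM, respectively, and that of 8 interneuron markers 914 to 1022 and 597 to 704 CPM. The 8 dentate granule neuron markers overlapped between the groups, with sums of 424 to 602 and 338 to 637 CPM. At an adjusted P below 0.05, 2 of them fell, where 13.2% of all tested genes did. So did 7 of the 9 pyramidal neuron markers and 6 of the 8 interneuron markers. In such bulk tissue, more cells of a type and more RNA per cell cannot be told apart. Choroid plexus and ependyma markers were uneven within both groups, with sums of 1011, 4108 and 88.9 CPM in sham mice 1, 2 and 3 and of 5967, 62.6 and 3260 CPM in BCAS mice 1, 2 and 3.

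Differentially expressed genes (DEGs) were called at an adjusted P below 0.05 and an absolute log2 fold change above 1, with P adjusted over all tested genes. The 4 members Tgfb1, Tgfbr1, Tgfbr2 and Nrros were up-regulated DEGs, and Smad3 rose by less than 1 log2 unit. By adjusted P alone, 5 of the 10 members rose and 0 fell, beside 18.0% of all tested genes that rose and 13.2% that fell. As DEGs, 4 of the 10 were higher and 0 lower, against a background of 8.47% higher and 0.999% lower. Every BCAS mouse lay above every sham mouse for 6 members, which were these 5 and Smad7, and below every sham mouse for 0 members, a separation seen upward in 25.3% and downward in 22.7% of all tested genes. The median log2 fold change was 0.41 over the members and 0.02 over all tested genes. BCAS mouse 3 had the highest level of 7 members, BCAS mouse 1 of 2 members and sham mouse 2 of Tgfb2 alone.

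**Figure D1:**
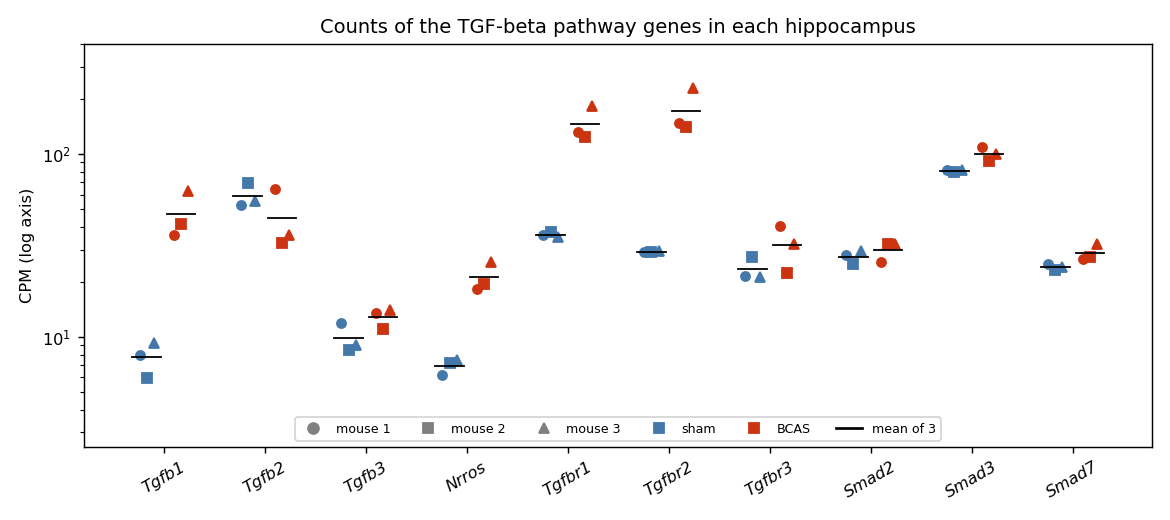
CPM (log axis) of the 10 genes in each of the 3 sham and 3 BCAS libraries, 1 symbol per mouse. The BCAS points of Tgfb1, Tgfbr1, Tgfbr2 and Nrros stand clear of the sham points, whereas those of Tgfb2, Tgfb3, Tgfbr3 and Smad2 overlap with them.

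The promoter windows of the 4 genes that passed both thresholds are shown, because these genes moved together. Each covers 250 bases before the RefSeq transcription start and 50 bases from it on (build GRCm38.p6, which has the coordinates of mm10), 5′ to 3′ on the strand of the gene. Windows were read for 6 of the genes (Tgfb1, Tgfb2, Tgfbr1, Tgfbr2, Smad3 and Nrros), and those of Smad2 and Smad7 were not used here. In all, 3 motifs were searched on both strands, none of which overlaps another within these windows. They were the SMAD box CAGAC, the palindromic SMAD element GTCTAGAC, and GAGGAA, the core of sites for PU.1, a transcription factor of microglia and macrophages. Capitals mark the matches. The windows are Tgfb1, chr7:25686752-25687051 (+); the first of the pair of Tgfbr1 starts, chr4:47352972-47353271 (+); Tgfbr2, chr9:116175314-116175613 (−); and Nrros, chr16:32165545-32165844 (−).
Tgfb1: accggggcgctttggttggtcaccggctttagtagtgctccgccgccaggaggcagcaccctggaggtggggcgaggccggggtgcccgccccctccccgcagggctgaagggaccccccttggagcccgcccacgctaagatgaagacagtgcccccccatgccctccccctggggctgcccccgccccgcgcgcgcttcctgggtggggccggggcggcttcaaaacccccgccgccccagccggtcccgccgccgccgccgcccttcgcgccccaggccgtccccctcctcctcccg
Tgfbr1: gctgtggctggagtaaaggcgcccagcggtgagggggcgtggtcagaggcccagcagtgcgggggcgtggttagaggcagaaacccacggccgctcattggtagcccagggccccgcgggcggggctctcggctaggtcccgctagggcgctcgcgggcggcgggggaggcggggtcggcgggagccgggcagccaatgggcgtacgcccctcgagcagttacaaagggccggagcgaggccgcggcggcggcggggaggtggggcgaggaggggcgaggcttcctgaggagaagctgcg
Tgfbr2: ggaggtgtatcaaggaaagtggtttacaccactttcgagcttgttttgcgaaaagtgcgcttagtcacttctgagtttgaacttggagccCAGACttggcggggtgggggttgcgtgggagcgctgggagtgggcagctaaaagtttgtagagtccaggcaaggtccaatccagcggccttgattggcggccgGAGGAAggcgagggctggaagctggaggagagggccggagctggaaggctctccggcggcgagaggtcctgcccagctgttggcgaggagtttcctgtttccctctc
Nrros: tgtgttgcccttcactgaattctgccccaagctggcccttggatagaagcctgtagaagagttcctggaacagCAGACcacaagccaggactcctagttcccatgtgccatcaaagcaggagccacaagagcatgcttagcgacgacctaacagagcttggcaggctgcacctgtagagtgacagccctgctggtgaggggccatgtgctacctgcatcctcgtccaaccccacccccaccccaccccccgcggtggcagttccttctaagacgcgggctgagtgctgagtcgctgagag

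The Tgfb1 window and the first Tgfbr1 window held none of the 3 motifs, and their GC content was 77.0% and 74.7%, beside a median of 52.7% over all promoter windows. The Tgfbr2 window, of 59.0% GC, held CAGAC at −160 and GAGGAA at −57 relative to the start. The Nrros window, also of 59.0% GC, held CAGAC at −177. The second Tgfbr1 start, chr4:47385966-47386265 (+), held CAGAC at −203 and GAGGAA at −95. Among the genes outside these 4, the Tgfb2 window held CAGAC at −221 and −204 and the PU.1 core on the opposite strand at −184, and the Smad3 window held none of the motifs. CAGAC occurred in 49.6% of all 32851 windows of this length, GAGGAA in 28.3% and GTCTAGAC in 0.213%, so a match with either of the first pair is common. A match describes the letters of a window and not a bound site.

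Among the ligands, Tgfb1 rose, and Tgfb2 and Tgfb3 did not pass the test. Tgfb1 encodes TGF-β1, the ligand typical of immune cells including microglia. Its gene lies at chr7:25687002-25705077 (mm10, + strand) and has 5042 exonic bases in 8 merged exons. Its level was 7.998, 5.99 and 9.24 CPM in sham mice 1, 2 and 3 and 36.04, 41.6 and 63.0 CPM in BCAS mice 1, 2 and 3. The lowest BCAS level was thus well above the highest sham level. The mean went from 7.74 ± 1.64 to 46.9 ± 14.2 CPM (SD, n = 3 each), a 6.05-fold difference. The fitted log2 fold change was 2.60 (SE 0.23, 95% confidence interval 2.07 to 3.13, adjusted P = 9.65e-05). It ranged from 2.32 to 2.75 when each mouse was left out in turn, with an adjusted P of at most 0.00209.

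Tgfb2 encodes TGF-β2, a ligand of astrocytes, neurons and choroid plexus. It lies at chr1:186622792-186705989 (− strand) with 5791 exonic bases in 10 merged exons, of which 124 bases (2.14%) are shared with the antisense gene Gm29491, which itself had 33 counts over the 6 libraries. Its level was 52.4, 69.8 and 55.1 CPM in sham mice 1, 2 and 3 and 64.5, 32.5 and 36.2 CPM in BCAS mice 1, 2 and 3. BCAS mice 2 and 3 were below every sham mouse, but BCAS mouse 1 was above sham mice 1 and 3. The log2 fold change was −0.41 (SE 0.24, 95% confidence interval −0.95 to 0.13, adjusted P = 0.223). Without BCAS mouse 1 it was −0.79 with an adjusted P of 0.00396, so the call rests on that mouse. BCAS mouse 1 and sham mouse 2, which had the highest Tgfb2 levels of their groups, also had the highest choroid plexus and ependyma marker sums.

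Tgfb3 encodes TGF-β3. It lies at chr12:86056745-86079041 (− strand) with 3383 exonic bases in 7 merged exons, 420 of which (12.4%) are shared with the antisense genes Gm37804 and Gm48008. These had 7 and 9 counts in all, and reads were counted without regard to strand. Its level was 11.98, 8.500 and 8.98 CPM in the sham mice and 13.5, 11.0 and 14.0 CPM in the BCAS mice. Sham mouse 1 was above BCAS mouse 2, so the groups overlapped. The fitted difference was 0.39 log2 units (SE 0.17, 95% confidence interval 0.01 to 0.76, unadjusted P = 0.0444, adjusted P = 0.108). Without sham mouse 1 it was 0.55 and passed at an adjusted P of 0.0464.

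**Figure D2:**
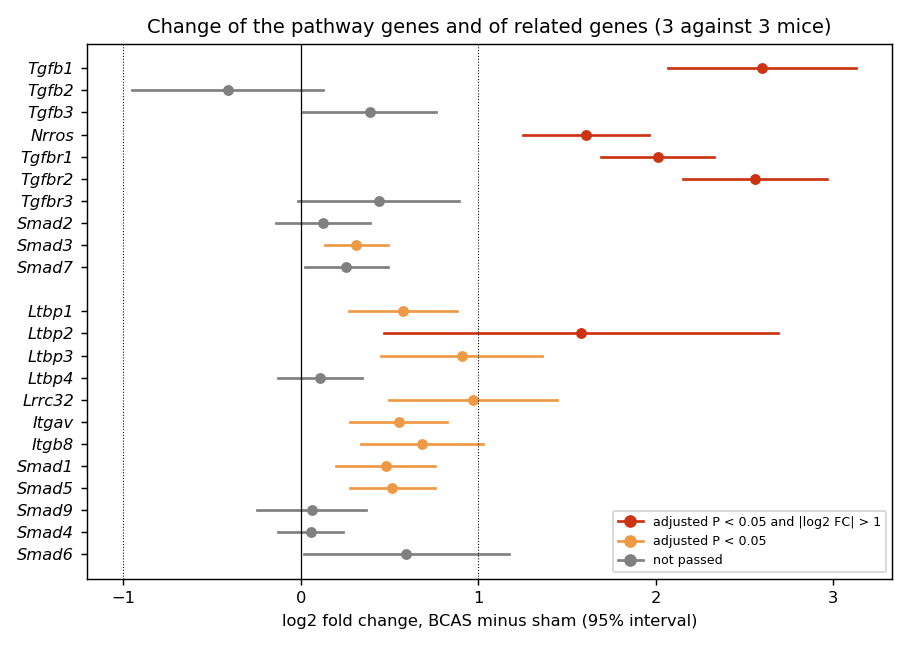
Fitted log2 fold change (BCAS minus sham) of the 10 genes and, beneath them, of 12 related genes of the pathway described further on, each with its 95% confidence interval, from 3 mice per group. Tgfb1 (2.60), Tgfbr2 (2.56), Tgfbr1 (2.01) and Nrros (1.61) lie above 1 with their whole intervals, and Smad3 (0.31) is the other gene of the 10 that passed the adjusted test.

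The make-up of the ligand pool was compared per length, as CPM per kilobase (kb) of exon. Tgfb1 made up 11.2%, 7.53% and 13.1% of the summed CPM per kb of the 3 ligands in sham mice 1, 2 and 3, and 32.1%, 48.2% and 54.6% in BCAS mice 1, 2 and 3. Tgfb2 made up 63.8%, 76.5% and 68.0% in the sham mice and 50.01%, 32.8% and 27.4% in the BCAS mice. Tgfb2 was therefore the leading ligand transcript in every sham mouse and in BCAS mouse 1, and Tgfb1 was in BCAS mice 2 and 3. The share of Tgfb3 was 19.96 ± 4.60% and 18.4 ± 0.626% (SD, n = 3 each). The summed level of the ligands was 14.7 ± 0.967 CPM per kb in the sham mice and 20.8 ± 3.17 CPM per kb in the BCAS mice. The log2 ratio of Tgfb1 to Tgfb2 within a library averaged −2.74 ± 0.52 in the sham mice and 0.30 ± 0.85 in the BCAS mice (SD, n = 3 each), a difference of 3.05. For Tgfb1 to Tgfb3 the difference was 2.18. Both had an exact two-sided permutation P of 0.1, the smallest that 3 against 3 mice can give, and 0.14 after adjustment over the 7 ratios compared.

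**Figure D3:**
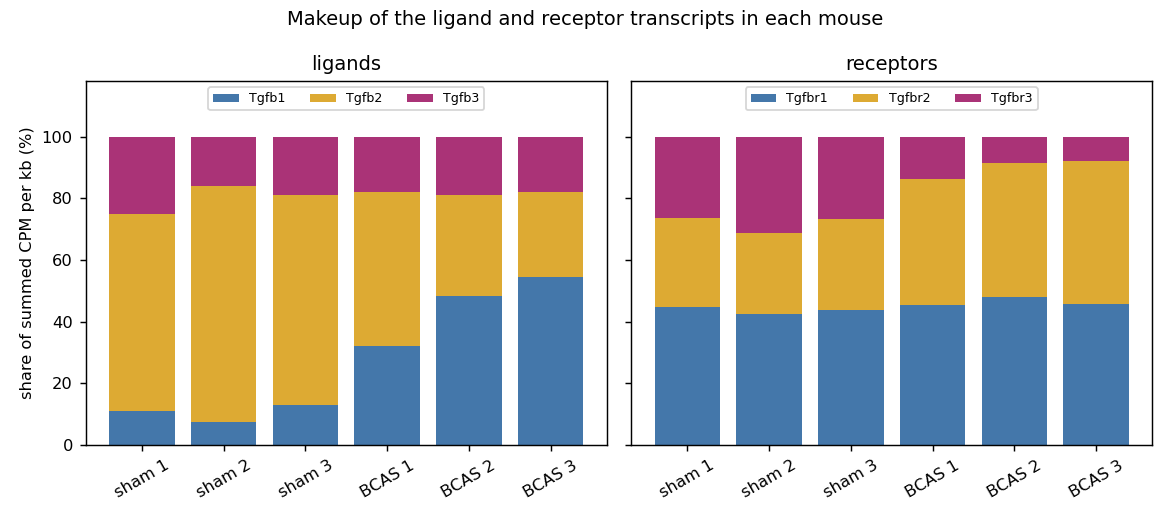
Share (%) of each gene in the summed CPM per kb of its family (ligands left, receptors right) in each of the 6 libraries. Mean Tgfb1 and Tgfbr2 shares were 10.6% and 28.2% in the sham mice and 45.0% and 43.3% in the BCAS mice.

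Nrros, the anchor of latent TGF-β1 on microglia and macrophages, also rose. It lies at chr16:32142785-32165594 (− strand) and has 4177 exonic bases in 6 merged exons. Its level was 6.20, 7.15 and 7.49 CPM in sham mice 1, 2 and 3 and 18.3, 19.6 and 25.7 CPM in BCAS mice 1, 2 and 3, with no overlap. The mean went from 6.95 ± 0.672 to 21.2 ± 3.94 CPM (SD, n = 3 each), 3.05-fold. The log2 fold change was 1.61 (SE 0.16, 95% confidence interval 1.25 to 1.96, adjusted P = 0.000143) and stayed between 1.44 and 1.70 with any mouse left out. Per length, Nrros and Tgfb1 stood at 0.935, 1.44 and 0.979 to 1 in the sham mice and at 0.612, 0.568 and 0.492 to 1 in the BCAS mice. The log2 ratio differed by −0.98 (exact permutation P = 0.1, adjusted over the 7 ratios 0.14).

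Both signalling receptors rose, and the co-receptor Tgfbr3 did not pass the test. Tgfbr1, the type I receptor kinase, lies at chr4:47353222-47414931 (+ strand) with 6534 exonic bases in 13 merged exons. Its level was 36.1, 37.3 and 35.3 CPM in sham mice 1, 2 and 3 and 132, 124 and 183 CPM in BCAS mice 1, 2 and 3. The sham mice were within about 2 CPM of each other, and the BCAS mice were all far above them. The mean went from 36.2 ± 1.04 to 146 ± 31.9 CPM (SD, n = 3 each), 4.03-fold. The log2 fold change was 2.01 (SE 0.14, 95% confidence interval 1.69 to 2.33, adjusted P = 2.75e-05), and 1.81 to 2.11 with any mouse left out.

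Tgfbr2, the type II receptor that binds ligand first, lies at chr9:116084293-116175360 (− strand) with 8187 exonic bases in 8 merged exons. Its level was 29.2, 29.0 and 29.6 CPM in the sham mice and 147, 140 and 230 CPM in the BCAS mice, again with BCAS mouse 3 highest. The mean went from 29.3 ± 0.334 to 172 ± 49.96 CPM (SD, n = 3 each), 5.89-fold. The log2 fold change was 2.56 (SE 0.18, 95% confidence interval 2.15 to 2.97, adjusted P = 2.82e-05), and 2.29 to 2.68 with any mouse left out. Per length, Tgfbr1 exceeded Tgfbr2 by 1.55, 1.61 and 1.49-fold in the sham mice, and the ratio was 1.12, 1.11 and 0.995 in the BCAS mice. No BCAS ratio reached a sham ratio, and the log2 difference was −0.53 (exact permutation P = 0.1, adjusted 0.14).

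Tgfbr3 (betaglycan) lies at chr5:107106570-107289629 (− strand) with 6545 exonic bases in 18 merged exons, 297 of which (4.54%) are shared with the same-strand gene Gm43422, which had 5 counts in all. Its level was 21.4, 27.4 and 21.4 CPM in sham mice 1, 2 and 3 and 40.4, 22.4 and 32.2 CPM in BCAS mice 1, 2 and 3. BCAS mouse 2 lay within the sham range and the other two above it. The log2 fold change was 0.44 (SE 0.20, 95% confidence interval −0.02 to 0.89, adjusted P = 0.129). Without BCAS mouse 2 it was 0.62 with an adjusted P of 0.0118. The order of Tgfbr3 followed the choroid plexus and ependyma marker sum among the BCAS mice, and sham mouse 2 was highest in both. With that marker sum as a covariate, an analysis added after the data were seen, the log2 fold change of Tgfbr3 was 0.35 (SE 0.12, adjusted P = 0.0406) and that of Tgfb2 was −0.50 (SE 0.18, adjusted P = 0.0575). For the 4 DEGs the same fit gave 2.62 (Tgfb1), 1.99 (Tgfbr1), 2.53 (Tgfbr2) and 1.603 (Nrros).

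**Figure D4:**
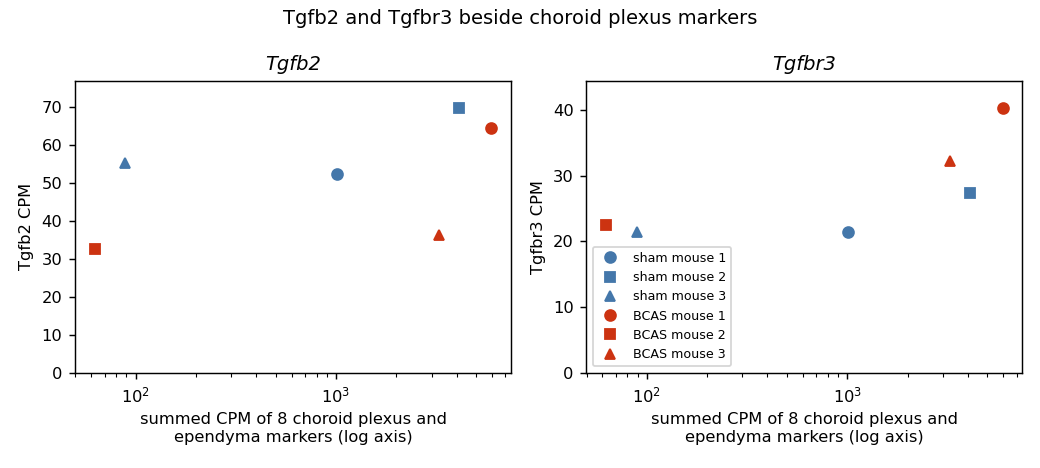
CPM of Tgfb2 (left) and Tgfbr3 (right) against the summed CPM of 8 choroid plexus and ependyma markers (log axis), 1 symbol per mouse. The highest levels within each group belong to sham mouse 2 (69.8 and 27.4 CPM) and BCAS mouse 1 (64.5 and 40.4 CPM), the mice with the highest marker sums of their groups.

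Summed over the 3 receptors, the level was 12.7 ± 0.644 CPM per kb in the sham mice and 48.3 ± 11.3 CPM per kb in the BCAS mice (SD, n = 3 each). Tgfbr3 made up 26.5%, 31.1% and 26.6% of it in sham mice 1, 2 and 3 and 13.9%, 8.68% and 8.06% in BCAS mice 1, 2 and 3. The share of Tgfbr2 was 28.2 ± 1.65% and 43.3 ± 2.74%, respectively, and that of Tgfbr1 was 43.7 ± 1.12% and 46.5 ± 1.37%. The log2 ratio of Tgfbr1 to Tgfbr3 was higher by 1.58 in the BCAS mice (exact permutation P = 0.1, adjusted 0.14).

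Among the SMAD genes, 1 of 3 passed the test. Smad3, which binds DNA directly and lies at chr9:63646767-63757994 (− strand) with 5542 exonic bases in 13 merged exons, was that gene. Its level was 81.7, 79.6 and 81.9 CPM in the sham mice and 109, 92.1 and 100 CPM in the BCAS mice, with no overlap. The means were 81.1 ± 1.25 and 100.6 ± 8.59 CPM (SD, n = 3 each), a 1.24-fold difference, with a log2 fold change of 0.31 (SE 0.08, 95% confidence interval 0.13 to 0.49, adjusted P = 0.0166). This call was lost when any sham mouse was left out (adjusted P 0.0576, 0.0735 and 0.0565 without sham mice 1, 2 and 3) and when BCAS mouse 1 was left out (log2 fold change 0.24, adjusted P = 0.0579).

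Smad2, the other receptor-activated SMAD of this pathway, lies at chr18:76241580-76305731 (+ strand) with 3549 exonic bases. Its level was 28.0, 25.1 and 29.3 CPM in the sham mice and 25.6, 32.1 and 32.1 CPM in the BCAS mice, and the groups overlapped. It differed by 0.12 log2 units (SE 0.12, 95% confidence interval −0.14 to 0.39, adjusted P = 0.459). Smad7, the inhibitor, lies at chr18:75367529-75395935 (+ strand) with 4521 exonic bases. Its level was 25.1, 23.3 and 24.1 CPM in the sham mice and 26.8, 27.4 and 32.3 CPM in the BCAS mice. Although these groups did not overlap, the log2 fold change of 0.26 (SE 0.10, 95% confidence interval 0.02 to 0.49) did not pass (unadjusted P = 0.0352, adjusted P = 0.0910).

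The shares of the SMAD genes differed between the groups by less than the spread between the BCAS mice. Smad3 held 52.8 ± 1.09% of the summed CPM per kb of the 3 SMAD genes in the sham mice and 55.1 ± 4.26% in the BCAS mice, Smad2 27.9 ± 1.28% and 25.6 ± 3.32%, and Smad7 19.3 ± 0.445% and 19.3 ± 1.41% (SD, n = 3 each). The log2 ratio of Smad7 to Smad2 plus Smad3 was −2.07 ± 0.04 in the sham mice and −2.06 ± 0.13 in the BCAS mice (exact permutation P = 1.0), and that of Smad3 to Smad2 differed by 0.19 (exact permutation P = 0.5). The summed SMAD level was 27.7 ± 0.986 and 33.0 ± 1.29 CPM per kb, beside the receptor sums given above, so that the SMAD sum exceeded the receptor sum in every sham mouse and was below it in every BCAS mouse.

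Ordered by level per length in the sham mice, Smad3 was highest at 14.6 CPM per kb, followed by Tgfb2 (10.2), Smad2 (7.74), Tgfbr1 (5.55), Smad7 (5.34), Tgfbr2 (3.57), Tgfbr3 (3.57), Tgfb3 (2.90), Nrros (1.66) and Tgfb1 (1.54). In the BCAS mice the order was Tgfbr1 (22.4), Tgfbr2 (21.1), Smad3 (18.2), Tgfb1 (9.29), Smad2 (8.43), Tgfb2 (7.67), Smad7 (6.38), Nrros (5.07), Tgfbr3 (4.84) and Tgfb3 (3.796). There the step from Smad3 to Tgfb1 was the single one between neighbours without overlap between mice. By these group means, Tgfb1 went from the last to the fourth place among the 10 genes. Single mice departed from this order. Nrros was below Tgfb1 in sham mice 1 and 3. In BCAS mouse 1, Tgfb1 (7.148 CPM per kb) was below Smad2 (7.224) and Tgfb2 (11.15).

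The genes that store and release TGF-β were read from a list of 20, of which 19 were tested (Itgb6 was not). Of these, 15 rose and 0 fell, 7 of them as DEGs, and the median log2 fold change was 0.92, against the 0.02 of all genes. Over all tested genes, 18.0% rose and 8.47% were up-regulated DEGs. The list shares Dcn and Fmod with the fibroblast markers, and Fmod is among its DEGs. Among integrin chains that bind latent TGF-β, Itgb5 rose by 2.34 (SE 0.13, adjusted P = 1.36e-05) and Itgb3 by 2.31 (SE 0.19, adjusted P = 5.74e-05). Itgav and Itgb8, whose products form the activating integrin αVβ8, rose by 0.55 (SE 0.12, adjusted P = 0.00909) and 0.68 (SE 0.15, adjusted P = 0.00976). Thbs1, which encodes the activator thrombospondin 1, rose by 2.11 (SE 0.21) and the matrix protease gene Mmp2 by 1.93 (SE 0.24). Lrrc32 (GARP), the relative of Nrros, rose by 0.97 (SE 0.21, adjusted P = 0.00852), from 5.20 ± 0.185 to 10.2 ± 3.07 CPM (SD, n = 3 each).

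The latent TGF-β binding proteins differed from one another. Ltbp3 rose by 0.91 (SE 0.20, adjusted P = 0.00941) and Ltbp1 by 0.58 (SE 0.13, adjusted P = 0.0119), and Ltbp4 had a log2 fold change of 0.11 (95% confidence interval −0.13 to 0.35, adjusted P = 0.471). Ltbp2 rose by 1.58 (SE 0.49, adjusted P = 0.0381) from a low level, 0.562 ± 0.163 to 1.69 ± 0.920 CPM. The Ltbp2 call was lost without any sham mouse and without BCAS mouse 2 or 3 (adjusted P 0.0689 to 0.148). The Ltbp1 call was lost at the margin without sham mouse 1 (0.0510) or sham mouse 2 (0.0516), and the Ltbp3 call without sham mouse 1 (0.0505).

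Of 9 other receptors of the TGF-β and activin group, 3 rose and 0 fell, with a median log2 fold change of 0.26, beside the 18.0% of all tested genes that rose and the 13.2% that fell. These were Cd109, a co-receptor that dampens TGF-β signalling (1.34, SE 0.19, adjusted P = 0.00120), and the endothelial receptors Acvrl1 (ALK1; 0.80, SE 0.12, adjusted P = 0.00152) and Eng (endoglin; 0.69, SE 0.11, adjusted P = 0.00204). Without BCAS mouse 2 the count was 3 higher and 2 lower (Acvr1b and Acvr2a, named after their values were seen), and without BCAS mouse 1 it was 3 higher and 1 lower (Acvr1c, likewise). The summed level of 9 endothelial markers was 342 to 378 CPM in the sham mice and 446 to 493 CPM in the BCAS mice, and its part in these results was not tested.

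The remaining SMADs and their regulators were split. Of 17 genes, 5 rose and 5 fell, and 1 was an up-regulated DEG, where 18.0% of all tested genes rose, 13.2% fell and 8.47% were up-regulated DEGs. Tgif1, a co-repressor of SMAD transcription, rose by 2.53 (SE 0.21, adjusted P = 5.65e-05), from 2.16 ± 0.298 to 12.5 ± 2.80 CPM (SD, n = 3 each). Pmepa1, a TGF-β-induced inhibitor of SMAD activation, rose by 0.93 (SE 0.13, adjusted P = 0.000955). The bone morphogenetic protein (BMP) effectors Smad5 and Smad1 rose by 0.52 (SE 0.11, adjusted P = 0.00697) and 0.48 (SE 0.12, adjusted P = 0.0180). The shared partner Smad4 had a log2 fold change of 0.06 (95% confidence interval −0.13 to 0.24, adjusted P = 0.630), the inhibitor Smad6 of 0.60 (adjusted P = 0.110) and Smad9 of 0.06 (adjusted P = 0.769). Smad9 turned to −0.07 without BCAS mouse 3, and Smad6 passed at 0.84 (adjusted P = 0.00546) without BCAS mouse 2.

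The 4 named genes among those that fell encode proteins that act on SMADs or receptors. Nedd4l, a ubiquitin ligase for activated SMADs, fell by 0.50 on the log2 scale (SE 0.10, adjusted P = 0.00555), and Zfyve9 (SARA), which brings SMAD2 and SMAD3 to the receptor, fell by 0.38 (SE 0.07, adjusted P = 0.00385). The SMAD phosphatase gene Ppm1a fell by 0.32 (adjusted P = 0.0371) and the SMAD4 regulator gene Trim33 by 0.23 (adjusted P = 0.0352). Each of these 2 calls was lost when a single mouse was left out, without every mouse other than BCAS mouse 2, with an adjusted P of up to 0.129 and 0.138. Smad1 also fell short (0.0762, 0.0595 and 0.0529) when sham mouse 1, sham mouse 2 or BCAS mouse 3 was omitted. The list's 10 calls became 5 when sham mouse 1 or sham mouse 2 was left out, and 6 when sham mouse 3 or BCAS mouse 3 was. Its falls were 2 without any 1 mouse other than BCAS mouse 2, and 4 without that one. With all mice and counts scaled by library totals, its falls were also 2 (Zfyve9 and Nedd4l), beside 5 rises.

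**Figure D5:**
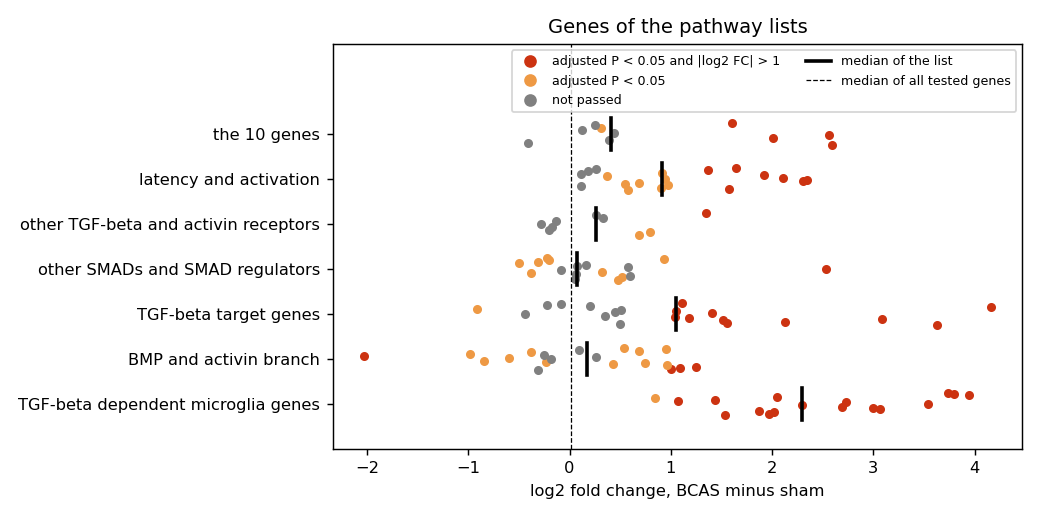
Fitted log2 fold change (BCAS minus sham) of every tested gene of the 10-gene set and of the 6 pathway lists, with the median of each list as a bar and that of all tested genes (0.02) as a dashed line. All points of the TGF-β dependent microglia genes lie above 0, while the SMAD regulators and the BMP and activin branch lie on both sides.

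Genes commonly used as transcriptional targets of TGF-β rose in part. Of 20, 11 rose, all as DEGs, 1 fell and 8 did not pass, and the median log2 fold change was 1.05. The share of up-regulated DEGs over all tested genes was 8.47%. Timp1, an inhibitor of matrix proteases, rose by 4.16 (SE 0.48, adjusted P = 0.000363), from 0.256 ± 0.168 to 4.66 ± 1.79 CPM (SD, n = 3 each). The collagen genes Col3a1 and Col1a1 rose by 3.09 (SE 0.51, adjusted P = 0.00250) and 2.13 (SE 0.39, adjusted P = 0.00409). Klf10, an immediate early TGF-β response gene, fell by 0.91 on the log2 scale (SE 0.11, adjusted P = 0.000405). Timp1 rose by 4.80 without sham mouse 1. Without BCAS mouse 3 the list held 7 DEGs. Of its genes, 3 (Col1a1, Col1a2 and Col3a1) are also fibroblast markers and 2 (Acta2 and Tagln) mural markers. The summed level of 8 fibroblast markers was 163 to 286 CPM in the sham mice and 313 to 519 CPM in the BCAS mice, and its part in the collagen values was not tested.

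In the BMP and activin branch, 9 of 20 genes rose and 6 fell, beside 18.0% and 13.2% of all tested genes, with a median log2 fold change of 0.18. Bmp6 rose by 1.25 (SE 0.26, adjusted P = 0.00787), Bmp5 by 1.09 (SE 0.26, adjusted P = 0.0136), Bmp4 by 1.00 (SE 0.26, adjusted P = 0.0176) and Bmp7 by 0.97 (SE 0.16, adjusted P = 0.00262). The activin antagonist Fst (follistatin) fell by 2.03 on the log2 scale (SE 0.61, adjusted P = 0.0334), from 1.77 ± 0.211 to 0.435 ± 0.458 CPM, and the BMP antagonist Grem1 by 0.98 (SE 0.24, adjusted P = 0.0146). Inhba, the activin A subunit and a neuronal activity gene, fell by 0.84 (SE 0.21, adjusted P = 0.0168), and Gdf10 by 0.60 (SE 0.13, adjusted P = 0.00834). The calls of Grem1 (0.0523), Inhba (0.0634), Bmp4 (0.0717) and Bmp5 (0.0535) were lost without sham mouse 1. Without sham mouse 2, Bmp4 (0.0622) and Bmp5 (0.0506) were lost, and without BCAS mouse 3, Inhba (0.0505). The Fst call was lost without each mouse other than BCAS mouse 2 (0.0618 to 0.0950), without which Fst fell by 3.34. The list counted 15 calls in all mice and 8 without sham mouse 1, its falls were 1 to 3 without any 1 mouse other than BCAS mouse 2, and its 4 DEGs were 1 without sham mouse 1 and 2 without BCAS mouse 3.

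Genes that microglia need TGF-β to keep expressing all rose. Of 17, 17 rose, 16 as DEGs, with a median log2 fold change of 2.299, where 8.47% of all tested genes were up-regulated DEGs. The complement genes C1qa (3.95, SE 0.18, adjusted P = 8.27e-06), C1qb (3.801) and C1qc (3.74) and the receptor gene Fcrls (3.54, SE 0.22) changed most. The remaining gene, Gas6, a ligand of phagocytic receptors that other cell types also make, rose by 0.85 (SE 0.18). Among homeostatic microglial genes, singled out after their values were seen, P2ry12 rose by 1.54 (SE 0.12), from 46.5 ± 0.720 to 135 ± 23.9 CPM, and Tmem119 by 2.02 (SE 0.25), from 21.3 ± 0.370 to 86.4 ± 37.3 CPM (SD, n = 3 each). Of the 17, 7 are also in the microglia and macrophage marker list, in which 17 of 17 genes were up-regulated DEGs with a median of 3.47. Whether the change of these genes, or of Tgfb1, Tgfbr1, Tgfbr2 and Nrros, differs from that of the microglial content of the tissue was not tested.

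Values for other cell types that moved with the group stand beside these results. Of the border-associated macrophage markers, 6 of 8 were up-regulated DEGs, where 8.47% of all tested genes were, with a summed level of 24.8 to 34.2 CPM in the sham mice and 77.7 to 127 CPM in the BCAS mice. Among T cell markers, 5 of 8 were, with 2.57 to 3.27 and 9.81 to 11.7 CPM. For neutrophils and monocytes, 3 of 8 markers were tested and 2 rose, and the sums were 1.05 to 2.19 and 5.11 to 10.3 CPM. Only 1 of the 8 had more than 3 counts in every library. The neutrophil markers ran from Ly6g, at 0 in every library, and Elane, with at most 3 counts, to S100a9. S100a9 had 14, 3 and 28 counts in sham mice 1, 2 and 3. It had 14, 40 and 44 counts in BCAS mice 1, 2 and 3, so the groups overlapped. Of 10 astrocyte markers, 9 rose, where 18.0% of all tested genes did, with summed levels of 4578 to 4849 and 9694 to 10220 CPM. Mural markers rose in 4 of 8 cases, with sums of 302 to 382 and 398 to 461 CPM, and oligodendrocyte precursor markers in 3 of 6, with sums of 315 to 351 and 364 to 439 CPM. Of 9 oligodendrocyte markers, 0 passed. The part of these cell types in the values of the 10 genes was not tested.

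For each member, the pair of genes with the most similar profile over the 6 libraries was sought among 15631 tested genes with a mean of at least 1 CPM, as the smallest root mean square difference of centred log2 CPM. Tgfbr2 was nearest to Mlxipl (0.0604) and to Cd33 (0.0705), a sialic acid-binding receptor of myeloid cells. Tgfbr1 was nearest to Irgm1 (0.0493), an interferon-inducible GTPase gene, and Tep1 (0.0536). Nrros was nearest to Cd83 (0.0522) and Scamp2 (0.0600), and Tgfb1 to Abcc3 (0.0931) and Myo1g (0.102), the last of which was not among the nearest pair with a smaller prior count. Tgfb2, by contrast, was nearest to Stab2 (0.0841) and Gm37174 (0.0872), and one of the nearest pair of Tgfbr3 was Nek11 (0.0586). Tgfb3 was nearest to Ttll4 (0.0460) and Pcdhgb8 (0.0600), and Smad2 to Gm17201 (0.0330) and Bcl7c (0.0356). Smad3 was nearest to Zdhhc1 (0.0319) and Vps54 (0.0331), and Smad7 to Picalm (0.0256) and Srgap2 (0.0267). These are likenesses over 6 libraries of 2 groups, to which the group difference contributes.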

How the data were processed

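RNA of 6 right hippocampi (3 sham, 3 BCAS) was sequenced, and the deposited values are raw counts per gene. Per the file headers, the authors counted with featureCounts 2.0.3 against GENCODE vM20 on mm10, ignoring strand, leaving out multi-mapping reads and counting the mates of a pair separately, so that a fragment can give a count for each mate. The submitters' processing notes name featureCounts 1.6.3 after Trim Galore and HISAT2. Gene symbols were matched for 54723 of 54752 genes.

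Counts were tested with edgeR 4.0.16 (filterByExpr, TMM, quasi-likelihood test, Benjamini-Hochberg adjustment over 18617 genes; R 4.3.3). TMM factors were 0.964 to 0.984 in the sham and 1.01 to 1.05 in the BCAS libraries. The analysis was tested on simulated data. CPM use TMM-scaled totals, and intervals are 95%. CPM per kb divide by the union of exons. Log2 CPM for profile likeness used a prior count of 2, or 0.5 as the alternative. Ratios between members were compared with exact permutation tests. P-values of the quasi-likelihood test weigh the difference between the groups against the spread between the mice of each group.

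The members, pathway lists and markers were chosen with earlier results of these data known. The genes named were the members, the SMADs, latency proteins and αVβ8 integrin chains listed by name, and up to 4 rises and 4 falls per list with the largest change among non-overlapping genes past the adjusted P whose mean reached 1 CPM; 2 genes that this rule and the profile comparison select are not reported here. Sequences and promoters are from RefSeq. Alternatives were DESeq2 1.42.0, limma-voom (limma 3.58.1), other scalings and filters, glmTreat, halved counts, a replicate block, a choroid plexus covariate (chosen after seeing the data) and leaving out each mouse.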

Additional observations from a re-analysis of the deposited data

How the results depend on the processing

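The count of DEGs among the 10 genes was 4 under every alternative run, and the number past the adjusted P was 4 to 6 (4 under glmTreat). Of the members' fits on all mice, 97 kept the side of the threshold and direction, 2 came to pass and 1 no longer passed. The 2 were Tgfbr3 with no filter beyond 1 count (0.43, adjusted P = 0.0463) and with the choroid plexus covariate, and the 1 was Smad3 under glmTreat. Scaling by library totals moved the all-gene median log2 fold change from 0.02 to 0.10. glmTreat tests for a log2 fold change above 1, so by its construction it calls fewer genes: 818 in place of 1762 DEGs and of 5819 genes past the adjusted P, 4 in the latency list (7 DEGs, 15 past the adjusted P), 0 among the other receptors (1 and 3), 1 among the other SMADs (10 past the adjusted P), 3 target genes (11 and 12) and 0 in the BMP and activin branch (4 and 15). Library totals gave 2 DEGs among the other SMADs in place of 1, and the cause was not tested. The 5 falls of that list were 2 with library totals and with the replicate block. They were 3 with no filter beyond 1 count and 4 with limma-voom, and the rises were 5 in each of these fits. The log2 ratio of Smad7 to Smad2 plus Smad3, which differed by 0.002, turned to −0.014 on CPM without gene length. It ran from −0.067 to 0.062 with 1 mouse left out.

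With each mouse left out in turn, counts ranged from 1306 to 1976 DEGs and from 3782 (without sham mouse 3) to 6646 genes past the adjusted P. Other receptors past it ranged from 3 to 5 (3 higher throughout, 0 to 2 lower), other SMADs from 5 to 10 with 1 to 2 DEGs, target gene DEGs from 7 to 12, and the BMP and activin branch from 8 to 15 with 1 to 6 DEGs. Among 42 other named genes, 33 of the leave-one-out fits lost a call, 1 gained one and 1 changed sign (Smad9, whose log2 fold change ran from −0.067 to 0.134). On all mice and apart from glmTreat, 7 fits of these genes lost a call: Ltbp2 with limma-voom (0.0865) and the replicate block (0.0954), Ppm1a with library totals (0.0613) and the block (0.0655), and Trim33 with library totals (0.103), no filter (0.0766) and the block (0.0737). Replicate numbers were taken from the labels, although the headers of the BCAS files number the mice from 2 on. Residual correlations of mice with the same label number were 0.036, −0.314 and −0.158. Other ways of pairing the mice, such as by header number, were not examined, so these values cannot show whether the mice were paired. A fit with a replicate block gave 1595 DEGs, 4532 genes past the adjusted P, and 4 DEGs and 5 calls among the members, with Smad3 at 0.31 (adjusted P = 0.0345). With counts halved, the calls of the low genes Ltbp2 and Fst held. The 3 mice per group limit every exact test to P = 0.1.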
